A study of Mus musculus with 6 samples.

Results

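Paneth cell products were followed in the RNA-Seq of mouse small intestinal organoids treated with low-density lipoprotein (LDL) or with PBS. They were taken as 8 genes by symbol: the lysozyme gene Lyz1, the lectin gene Itln1, the ribonuclease gene Ang4, the protease gene Mmp7 and 4 alpha-defensin genes, Defa17, Defa22, Defa24 and Defa30. All 8 were found among the 55416 genes of the table, and all 8 passed the filter on low values, a mean of at least 10 normalized counts, which left 18459 genes to test. The cultures were grown from crypts of the duodenum and jejunum of 3 C57BL/6 mice labelled wild type, and each mouse gave 1 culture with 50 μg/ml LDL and 1 with PBS, both kept for 5 days. The sources used here give no age for these mice. A replicate number stands for a mouse, because the LDL and PBS libraries of 1 number share an animal identifier. Organoids of this kind contain epithelium without the immune and stromal cells of the gut wall, so the values describe cultured epithelium only.

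Paneth cells sit at the base of small intestinal crypts, between the stem cells, and store antimicrobial proteins in large secretory granules. Alpha-defensins are made as precursors, and in the mouse the metalloprotease Mmp7 cuts them into active peptides inside the granules. Lysozyme cleaves the bacterial cell wall, Ang4 is a secreted ribonuclease of the angiogenin family with antimicrobial activity, and Itln1 is a lectin that binds microbial sugars and is also made by goblet cells. Paneth cells mature under Wnt signaling, which acts through beta-catenin and TCF factors, and they supply Wnt, EGF and Notch ligands to the stem cells beside them.

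A normalized count is here the number of reads on a gene divided by 1 size factor for its library, and a fold change is on the scale of log2(normalized count + 1). Between 22061545 and 31073360 reads on genes were counted per library. The PBS libraries detected 29285 to 30018 genes with at least 1 read, and the LDL libraries of mice 1, 2 and 3 detected 35781, 29870 and 32751. The question put to each gene was whether its level differed between LDL and PBS by more than the spread between mice. It was tested with limma over all 18459 genes, and a gene was called at a Benjamini-Hochberg adjusted p under 0.05 and a difference exceeding 1.5-fold. The fit without a term for the mouse is given first, because the study's methods name no such term, and the fit with the mouse as a block follows. In a bulk RNA sample, fewer cells of a type and less RNA per cell cannot be told apart.

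Without a term for the mouse, 0 of the 8 Paneth cell products were called, where limma called 0.878% of all genes higher and 0.395% lower. DESeq2, the tool of the study's methods, run without a mouse term on the recovered reads, called Mmp7 higher and Itln1, Defa17 and Defa24 lower, with adjusted p-values of 0.00148, 0.000255, 0.0129 and 0.00119, and in that fit 4.59% of all genes were called higher and 1.89% lower. In the limma fit without a mouse term, at an unadjusted p under 0.05, 4 of the 8 were counted, against 19.7% of all genes. With the mouse as a block, Mmp7 was called higher with LDL, and Itln1, Defa17 and Defa24 were called lower. In that fit 5.68% of all genes were called higher and 3.46% lower. The same 4 genes were those whose LDL and PBS libraries did not overlap, which held for 24.2% of all genes. Itln1, Defa17 and Defa24 were lower with LDL in each of the 3 mice, as were 26.8% of all genes. Mmp7 and Defa22 were higher in each mouse, as were 24.2% of all genes, and Lyz1, Ang4 and Defa30 went in mixed directions. The median log2 fold change of the 8 products was -0.29, beside -0.02 over all genes tested.

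**Figure D1:**
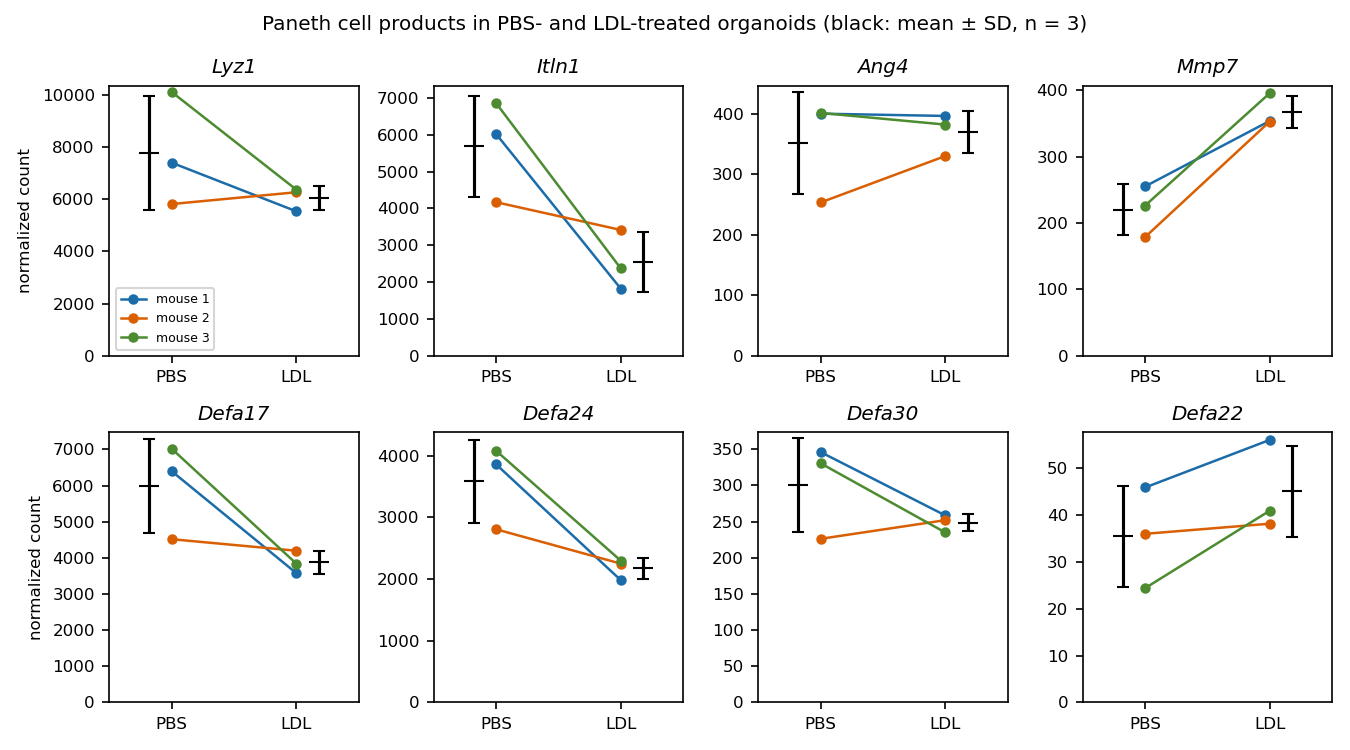
Normalized counts of the 8 Paneth cell products with PBS and with LDL, 1 line per mouse, with the mean and SD of the 3 libraries of each treatment in black and a vertical axis from 0 for each gene. The LDL points of Itln1, Defa17 and Defa24 all lie below the lowest PBS point, those of Mmp7 lie above the highest PBS point, and the line of mouse 2 is the flattest for Itln1, Defa17 and Defa24.

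Lyz1 (ENSMUSG00000069515, chr10:117123698-117128775 on the minus strand of GRCm39) encodes the lysozyme by which Paneth cells are usually stained. It held 7401, 5817 and 10109 normalized counts in the PBS libraries of mice 1, 2 and 3 and 5540, 6268 and 6371 in their LDL libraries. The groups overlapped, since the PBS library of mouse 2 lay below 2 of the 3 LDL libraries. The mean was 7776 ± 2171 with PBS and 6060 ± 453 with LDL (SD, n = 3). The log2 difference was -0.33 ± 0.19 (SE) in limma without a mouse term, with an adjusted p of 0.391. Its 95% interval ran from -0.76 to 0.11, which held both no change and a fall of more than 1.5-fold. With the mouse as a block the interval was -0.645 to -0.006, below no change. The adjusted p was then 0.160 in limma, and Lyz1 was not called. The LDL to PBS ratio was 0.749 in mouse 1, 1.08 in mouse 2 and 0.630 in mouse 3. Lyz2, the lysozyme gene of macrophages, shares 2.05% of the 100-base windows of the Lyz1 transcript and stood at 75.8 to 164 normalized counts.

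Itln1 (ENSMUSG00000038209, chr1:171345690-171368943, minus strand) had the largest difference of the 8 genes. It held 6020, 4170 and 6857 normalized counts in the PBS libraries and 1826, 3418 and 2376 in the LDL libraries of mice 1, 2 and 3. Every LDL library lay below every PBS library. The ratio was 0.303 in mouse 1 and 0.346 in mouse 3 but 0.820 in mouse 2. On the log2 scale Itln1 differed by -1.18 ± 0.25 (SE), with an adjusted p of 0.0698 in limma without a mouse term and of 0.0155 with the mouse as a block. No 100-base window of its transcript occurred in another gene.

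Ang4 (ENSMUSG00000060615, chr14:51990721-52011053, minus strand) was measured at 400, 253 and 401 normalized counts with PBS and at 396, 330 and 382 with LDL. The LDL libraries of mice 1 and 3 stood at 0.991 and 0.952 of the PBS libraries of the same mice, and the ratio of mouse 2 was 1.30. LDL and PBS differed by 0.10 ± 0.19 on the log2 scale (SE), with an adjusted p of 0.830 in limma and a 95% interval from -0.35 to 0.55. With the mouse as a block the interval was -0.18 to 0.38 and the adjusted p 0.640 in limma. The related angiogenin genes Ang2, Ang5 and Ang6 held at most 1 read in a library, whereas Ang, which is made in many tissues, held 122 to 164 normalized counts with a log2 difference of -0.02.

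Mmp7 (ENSMUSG00000018623, chr9:7692091-7699587, plus strand), the enzyme that activates the defensin precursors, went the other way. It held 255, 179 and 226 normalized counts with PBS and 354, 353 and 396 with LDL. All 3 LDL libraries lay above all 3 PBS libraries. The ratio was 1.39 in mouse 1, 1.97 in mouse 2 and 1.75 in mouse 3. For Mmp7 the log2 difference was 0.75 ± 0.16 (SE), with an adjusted p of 0.0642 in limma without a mouse term and of 0.00814 with the block. A noncoding gene on the opposite strand, AV064505, covers 3542 bases of the Mmp7 locus and held a mean of 0.343 normalized counts.

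Defa17 (ENSMUSG00000060208, chr8:22145772-22146753, plus strand) was the most abundant of the 4 defensin genes. It held 6398, 4516 and 7020 normalized counts with PBS and 3579, 4197 and 3842 with LDL. The highest LDL library and the lowest PBS library, both of mouse 2, lay close together but did not cross. The ratio was 0.559, 0.929 and 0.547 in mice 1, 2 and 3. The log2 difference was -0.60 ± 0.17 (SE), with an adjusted p of 0.112 in limma without a mouse term and of 0.0294 with the block, at a size just past the 1.5-fold threshold.

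Defa24 (ENSMUSG00000064213, chr8:22224506-22225490, plus strand) held 3862, 2808 and 4082 normalized counts with PBS and 1984, 2252 and 2300 with LDL. The groups did not overlap, and the ratio was 0.514, 0.802 and 0.564 in mice 1, 2 and 3. For Defa24 the log2 difference was -0.70 ± 0.15 (SE), with an adjusted p of 0.0680 in limma without a mouse term and of 0.00851 with the block. Defa30 (ENSMUSG00000074444, chr8:21609255-21625621, plus strand) held 346, 226 and 331 normalized counts with PBS and 259, 252 and 235 with LDL. Its groups overlapped through the PBS library of mouse 2, the lowest of all 6. The log2 difference was -0.25 ± 0.18 (SE), with an adjusted p of 0.489 in limma and a 95% interval from -0.66 to 0.16.

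Defa22 (ENSMUSG00000074443, chr8:21652290-21653265, plus strand) was the least abundant of the 8 genes, with 45.9, 36.0 and 24.4 normalized counts with PBS and 56.1, 38.2 and 41.0 with LDL. These values rest on 29 to 49 reads per library. It was higher with LDL in each mouse, with ratios of 1.22, 1.06 and 1.68, but the groups overlapped. For Defa22 the log2 difference was 0.36 ± 0.30 (SE), with an adjusted p of 0.561 in limma and a 95% interval from -0.33 to 1.05.

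**Figure D2:**
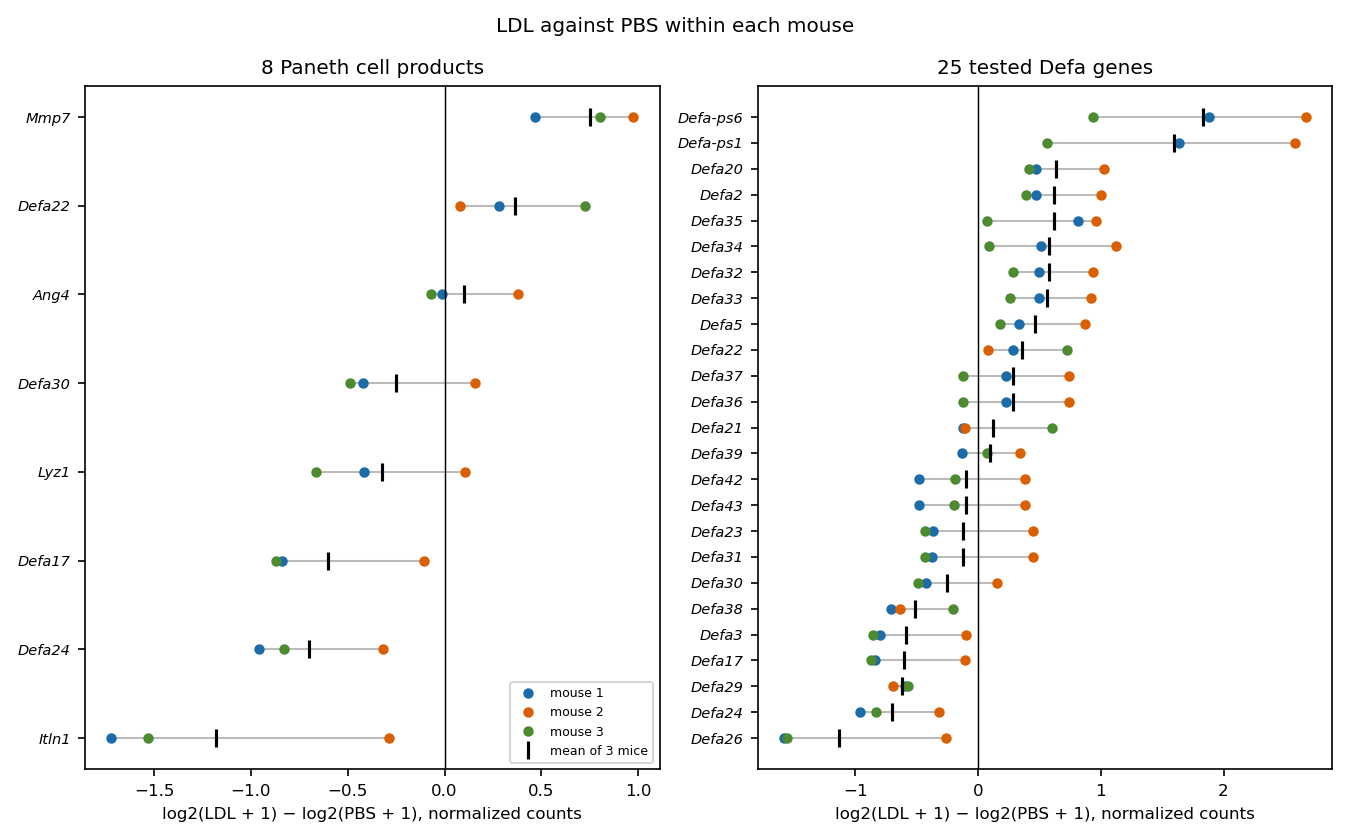
Difference between LDL and PBS within each mouse on the scale of log2(normalized count + 1), for the 8 Paneth cell products on the left and the 25 tested Defa genes on the right, with 1 point per mouse and a bar at the mean of the 3 mice. For Itln1, Defa17, Defa24 and Lyz1, mouse 2 lies to the right of mice 1 and 3, and the Defa genes run from Defa26 at -1.13 to Defa-ps6 at 1.83.

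Mouse 2 differed from the other mice in most of these genes. Its PBS library was the lowest PBS library for 7 of the 8 products, Defa22 being the exception. Summed over the 8 genes, the PBS libraries of mice 1, 2 and 3 held 24728, 18006 and 29050 normalized counts and the LDL libraries 13993, 17108 and 15942. The sum with LDL was 0.566 of that with PBS in mouse 1, 0.950 in mouse 2 and 0.549 in mouse 3. Most of this sum came from Lyz1, Itln1, Defa17 and Defa24, so it says little about Mmp7, Ang4, Defa22 and Defa30. In both libraries of mouse 2, a list of 9 enterocyte genes summed to 73156 (PBS) and 75174 (LDL) normalized counts, whereas it summed to 31932 to 39264 in the libraries of the other mice. A list of 8 genes of fetal-like epithelium summed to 693, 113 and 477 normalized counts with PBS and to 15137, 1499 and 10744 with LDL, with mouse 2 the lowest in each treatment. Of that list 6 genes were tested, 0 were called by limma without a mouse term (6 had an unadjusted p under 0.05) and 6 were called higher with the block. Spp1 of that list was at 0 in all 3 PBS libraries. The part of these differences in the values of the Paneth cell products was not tested.

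Leaving out both libraries of mouse 2 left the direction of the 4 genes as it was. The log2 differences were then -1.62 for Itln1, -0.85 for Defa17, -0.89 for Defa24 and 0.64 for Mmp7, and all 4 were called by limma without a mouse term. Calls over all genes rose in the same fit, to 5.48% higher and 3.98% lower. With the block these 4 genes were called as well, where 8.69% of all genes were called higher and 7.3% lower. Leaving out the LDL library of mouse 2 alone had the same effect, with adjusted p-values from limma of 0.00353 for Itln1, 0.0355 for Defa17, 0.0192 for Defa24 and 0.0209 for Mmp7, where 6.39% of all genes were called higher and 6.14% lower. Leaving out its PBS library alone gave 1 call, Defa24 (adjusted p = 0.0455 from limma), where 0.298% were called higher and 0.0488% lower. With both libraries of mouse 1 left out, 0 of the 8 genes were called without the block, with adjusted p-values from limma of 0.360 for Itln1, 0.444 for Defa17, 0.365 for Defa24 and 0.240 for Mmp7, and 0.0921% of all genes were called higher and 0.0108% lower. With the block in these 4 libraries limma called Mmp7 higher and Itln1 lower, and 4.11% of all genes higher and 1.77% lower. With both libraries of mouse 3 left out, 0 of the 8 genes were called, with or without the block, and 0 of all genes were called without it. With the block 1.44% of all genes were called higher and 0.417% lower.

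Levels can be set beside each other only per length of transcript. Per kilobase of exon and with PBS, the mean was 14132 normalized counts for Defa17, 8335 for Defa24, 6108 for Lyz1 and 4371 for Itln1. The next were Defa30 at 565, Ang4 at 199, Mmp7 at 181 and Defa22 at 83.3 normalized counts per kilobase. The PBS libraries of neighbours in this order overlapped for Defa24 and Lyz1, for Lyz1 and Itln1, and for Ang4 and Mmp7, and the other neighbours did not overlap. With LDL, Mmp7 stood at 291 to 326 normalized counts per kilobase and Ang4 at 187 to 224, so their order was turned and their libraries did not overlap. The level of Defa17 includes reads that fit Defa3 equally well, as described next.

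The alpha-defensin genes lie in 1 cluster on chromosome 8, and copies of them are so alike that a read can fit more than 1. The table held 45 genes whose symbols begin with Defa, of which 25 passed the filter. The ends of their coding sequences, 99 bases that finish with the stop codon and hold most of the stretch coding for the mature peptide, are shown for the 4 members of the set and for 3 close copies, on GRCm39 and read 5′ to 3′. Capitals mark the bases that differ from Defa17, whose own line therefore has none.
Defa17, chr8:22146559-22146657, plus strand: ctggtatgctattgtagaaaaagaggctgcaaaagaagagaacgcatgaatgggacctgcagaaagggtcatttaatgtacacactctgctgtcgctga
Defa23, chr8:21545839-21545937, plus strand: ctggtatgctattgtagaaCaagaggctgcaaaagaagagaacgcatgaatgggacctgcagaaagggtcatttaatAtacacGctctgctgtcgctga
Defa26, chr8:22108800-22108898, plus strand: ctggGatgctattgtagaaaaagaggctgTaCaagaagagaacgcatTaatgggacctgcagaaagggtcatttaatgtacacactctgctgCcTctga
Defa30, chr8:21625421-21625519, plus strand: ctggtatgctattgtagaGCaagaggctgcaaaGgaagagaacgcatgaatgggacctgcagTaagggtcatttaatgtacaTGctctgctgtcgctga
Defa24, chr8:22225295-22225393, plus strand: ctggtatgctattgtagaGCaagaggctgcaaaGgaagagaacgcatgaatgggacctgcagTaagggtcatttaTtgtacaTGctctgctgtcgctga
Defa22, chr8:21653073-21653171, plus strand: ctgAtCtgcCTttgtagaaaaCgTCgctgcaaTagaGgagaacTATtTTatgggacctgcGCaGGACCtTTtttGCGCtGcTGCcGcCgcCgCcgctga
Defa21, chr8:21516341-21516439, plus strand: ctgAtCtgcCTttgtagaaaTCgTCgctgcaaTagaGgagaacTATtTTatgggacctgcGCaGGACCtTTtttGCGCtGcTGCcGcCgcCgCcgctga

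Over these 99 bases Defa23 differed from Defa17 at 3 positions, Defa26 and Defa30 at 6, Defa24 at 7, Defa22 at 35 and Defa21 at 36. Defa3, which is not shown, had the same 99 bases as Defa17 and the same coding sequence throughout. Defa24 and Defa30 differed from each other at 1 position, and Defa21 and Defa22 likewise at 1. Likeness of the coding end did not always mean that a whole read could fit elsewhere. Windows of 100 bases, about the length of a read, were looked up in all other transcripts. Of the windows of the spliced Defa17 transcript 91.3% occurred unchanged in Defa3, while of those of Defa22 40.6% occurred in Defa21. Of the windows of Defa24, 0 occurred in another gene, and of those of Defa30 0.302% did. The lookup counts only windows without a mismatch, and copies that differ at scattered bases can share few such windows and still be alike.

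**Figure D3:**
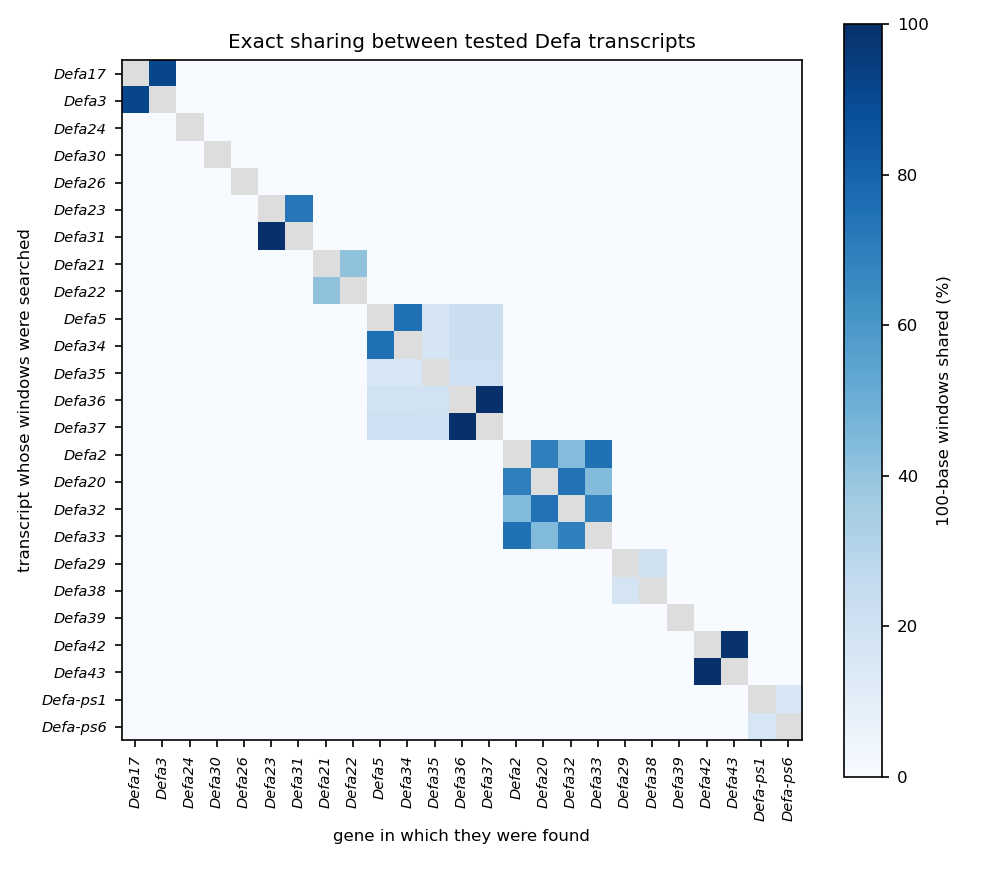
Share of the 100-base windows of each tested Defa transcript (rows) that occur unchanged in each other tested Defa gene (columns), in percent, with the diagonal in grey. Defa17 and Defa3 share 91.3% and 91.0% of their windows, Defa21 and Defa22 share 41.0% and 40.6%, and Defa24 shares 0% and Defa30 0.302% at most.

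The counts bore the mark of these copies. Defa36 and Defa37, whose windows are all shared, held the same number of reads in 6 of 6 libraries and were not at 0. Defa23 and Defa31 were equal in 5 of 6 libraries and differed by 1 read in the other, and so were Defa42 and Defa43. For these pairs, reads that fit both copies were therefore in the counts of each. The setting by which they were counted is not given in the sources used here. Defa17 held 1.13 to 1.17 times the reads of Defa3 in every library, so the difference seen for Defa17 cannot be placed on either gene alone. Defa3 held 5517, 3879 and 6024 normalized counts with PBS and 3168, 3629 and 3335 with LDL. Its log2 difference was -0.58 ± 0.14 (SE), with an adjusted p of 0.0310 in limma with the block, but its size was under the 1.5-fold threshold and it was not called. Summed, Defa17 and Defa3 had LDL to PBS ratios of 0.566, 0.932 and 0.550 in mice 1, 2 and 3.

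Over the whole family the direction was not shared. Without a mouse term 0 of the 25 tested Defa genes were called by limma. At an unadjusted p under 0.05 there were 12, of which 6 were higher and 6 lower with LDL, against 19.7% of all genes. The 6 higher were Defa2, Defa20, Defa32, Defa33, Defa-ps1 and Defa-ps6, and the 6 lower held both Defa17 and Defa3. Copies that share reads were thus counted more than once on both sides. With the block, Defa2, Defa20, Defa-ps1 and Defa-ps6 were called higher and Defa17, Defa24 and Defa26 lower. Defa26 held 78.6, 44.7 and 83.0 normalized counts with PBS and 25.6, 37.3 and 27.6 with LDL, without overlap, and its log2 difference was -1.13 ± 0.30 (SE), with an adjusted p of 0.0415 in limma with the block. Defa2 held 216, 123 and 160 normalized counts with PBS and 301, 247 and 211 with LDL, and overlapped by the PBS library of mouse 1 and the LDL library of mouse 3. Its log2 difference was 0.62 ± 0.15 (SE), with an adjusted p of 0.0305 in limma with the block. Defa20, Defa32 and Defa33 share 43.7% to 74.9% of the windows of Defa2, so these 4 genes cannot be read as 4 separate results. Summed over the 4, the LDL to PBS ratio was 1.40, 1.97 and 1.27 in mice 1, 2 and 3. The pseudogenes Defa-ps1 and Defa-ps6 held 3.73 to 40.2 normalized counts, few reads, and share windows with each other and with other copies.

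Of the 4 Defa genes called higher with the block, Defa2 and Defa20 have the same last 99 coding bases, and the 2 pseudogenes were not compared. A coding end like that of the genes called lower was also found in genes that were not called, since Defa23 and Defa31 differ from Defa17 at 3 positions and Defa30 from Defa24 at 1. The end of Defa2 is set beside that of Defa17, with the codons TGC and TGT, which encode cysteine, in capitals, because the 6 cysteines of an alpha-defensin form the bonds that hold the peptide in shape.
Defa17, chr8:22146559-22146657, plus strand: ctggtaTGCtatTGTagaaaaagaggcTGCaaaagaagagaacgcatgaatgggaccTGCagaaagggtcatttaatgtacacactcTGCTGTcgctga
Defa2, chr8:21869320-21869418, plus strand: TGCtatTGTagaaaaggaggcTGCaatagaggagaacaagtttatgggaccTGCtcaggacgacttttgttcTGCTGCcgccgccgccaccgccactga

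Both ends hold 6 such codons, but Defa2 begins and closes them earlier and ends in a run of codons that Defa17 lacks. Compared base by base with no gap, the ends differed at 71 of 99 positions. Corresponding cysteine codons did not line up in that comparison, so the count overstates how unlike the ends are. Over the family as a whole, 45 genes, the summed normalized counts were 19460, 13382 and 20282 with PBS and 12297, 13243 and 12365 with LDL. The ratio was 0.632 in mouse 1, 0.990 in mouse 2 and 0.610 in mouse 3. This sum counts some reads more than once, and most of it comes from Defa17, Defa3 and Defa24.

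Starts of the 4 defensin genes were read as well, because alpha-defensin genes are known targets of Wnt signaling and the 4 did not move alike. The TCF letters searched were CTTTG followed by 2 bases, each A or T, on both strands in the 250 bases before the start of 1 transcript per gene. The 250 bases are shown from GRCm39, with the matches in capitals, which here read as the reverse complement of CTTTG followed by A and T.
Defa17, chr8:22145522-22145771, plus strand: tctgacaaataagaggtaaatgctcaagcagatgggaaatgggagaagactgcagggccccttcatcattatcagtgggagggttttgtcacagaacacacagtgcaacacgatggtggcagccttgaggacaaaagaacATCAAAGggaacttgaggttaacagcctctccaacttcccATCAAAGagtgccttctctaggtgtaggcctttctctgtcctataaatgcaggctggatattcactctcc
Defa24, chr8:22224257-22224506, plus strand: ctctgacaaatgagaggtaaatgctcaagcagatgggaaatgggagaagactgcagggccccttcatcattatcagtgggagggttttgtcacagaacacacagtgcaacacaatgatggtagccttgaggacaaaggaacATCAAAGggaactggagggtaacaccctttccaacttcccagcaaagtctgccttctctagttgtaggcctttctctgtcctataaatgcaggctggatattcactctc
Defa30, chr8:21624383-21624632, plus strand: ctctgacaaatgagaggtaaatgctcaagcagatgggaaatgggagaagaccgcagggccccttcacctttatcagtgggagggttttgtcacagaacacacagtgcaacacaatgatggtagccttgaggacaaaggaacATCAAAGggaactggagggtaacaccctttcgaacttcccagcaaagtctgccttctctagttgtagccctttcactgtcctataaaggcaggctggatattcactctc
Defa22, chr8:21652043-21652292, plus strand: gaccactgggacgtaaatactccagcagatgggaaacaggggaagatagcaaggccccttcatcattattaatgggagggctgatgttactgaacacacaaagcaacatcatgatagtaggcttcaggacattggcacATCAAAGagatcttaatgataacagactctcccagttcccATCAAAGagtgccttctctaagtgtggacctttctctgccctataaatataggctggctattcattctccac

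Defa17 had 2 matches, which began 110 and 70 bases before the start, and Defa22 had 2, at 112 and 72 bases. Defa24 and Defa30 had 1 each, at 109 bases, and the 4 products outside the family, Lyz1, Itln1, Ang4 and Mmp7, had 0. Of 23 tested Defa genes with a coding sequence, 18 had a match (78.3%), as had 14.6% of the starts of 21627 protein-coding genes in the table. The number of matches did not set apart the genes called lower with the block, Defa17 with 2 and Defa24 with 1, from Defa22 with 2 and Defa30 with 1. A match of letters does not show that a factor binds there.

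Other genes of Paneth cells were taken from 3 lists that do not contain the 8 products. Of 36 listed genes for other granule and secreted products, 16 were tested, and limma without a mouse term called 1 higher and 0 lower. The median log2 difference was -0.02, the same as over all genes. The called gene was Thbs1, thrombospondin, a secreted matrix protein that other cells also make, with a log2 difference of 2.80 ± 0.41 (SE) and an adjusted p of 0.0241 in limma. With the block, 4 were called higher (Thbs1, Reg3g, Pnliprp2 and Pla2g2a) and 4 lower (Nupr1, Slc30a2, Clps and Tfpi2). Reg3g, an antimicrobial lectin, held 99.02, 64.6 and 93.6 normalized counts with PBS and 170, 188 and 170 with LDL, without overlap. Slc30a2, the zinc transporter that loads Paneth granules, held 340, 457 and 288 with PBS and 121, 352 and 176 with LDL, and overlapped through the LDL library of mouse 2. Summed, the 22 of these genes found in the table held 3340 to 3845 normalized counts with PBS and 3308 to 3783 with LDL. Nupr1 and Guca2b were the largest parts, with means of 1358 and 857 with PBS and 848 and 847 with LDL. Thbs1 had means of 76.7 with PBS and 551 with LDL, so a level sum does not mean that each gene was level. Of the 16 tested, 4 were higher in each mouse and 4 were lower in each.

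Of 23 factors for Paneth cell fate and maturation, 21 were tested and 0 were called without a mouse term, where 8 had an unadjusted p under 0.05 (3 higher and 5 lower). With the block limma called 0 higher and 1 lower, Gfi1, a repressor that secretory progenitors need. Gfi1 held 60.2, 73.3 and 83.0 normalized counts with PBS and 29.3, 47.3 and 43.5 with LDL, without overlap, and its log2 difference was -0.85 ± 0.25 (SE), with an adjusted p of 0.131 in limma without the block and 0.0264 with it. Sox9, which Paneth cells need to form, had a log2 difference of 0.37 ± 0.20 (SE), and Atoh1, the factor that opens the secretory lineage, of -0.39 ± 0.25 (SE), neither called. Of 8 niche ligands 6 were tested and 0 were called without a mouse term, where 3 had an unadjusted p under 0.05. With the block, the EGF receptor ligand Tgfa was called higher, at a log2 difference of 0.65 ± 0.10 (SE) and an adjusted p of 0.00618 in limma. Egf went the other way, from 69.4, 57.2 and 56.2 normalized counts with PBS to 48.8, 39.1 and 28.4 with LDL, without overlap. Its log2 difference was -0.66, with an adjusted p of 0.0725 in limma with the block, and it was not called. Of the 6 ligands, 2 were higher in each mouse and 2, Egf and Dll1, were lower in each. Wnt3, the Wnt ligand that Paneth cells supply, held 142, 99.4 and 170 normalized counts with PBS and 113, 125 and 166 with LDL, a log2 difference of -0.01 ± 0.24 (SE). The medians of the fate and ligand lists were -0.02 and 0.04.

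**Figure D4:**
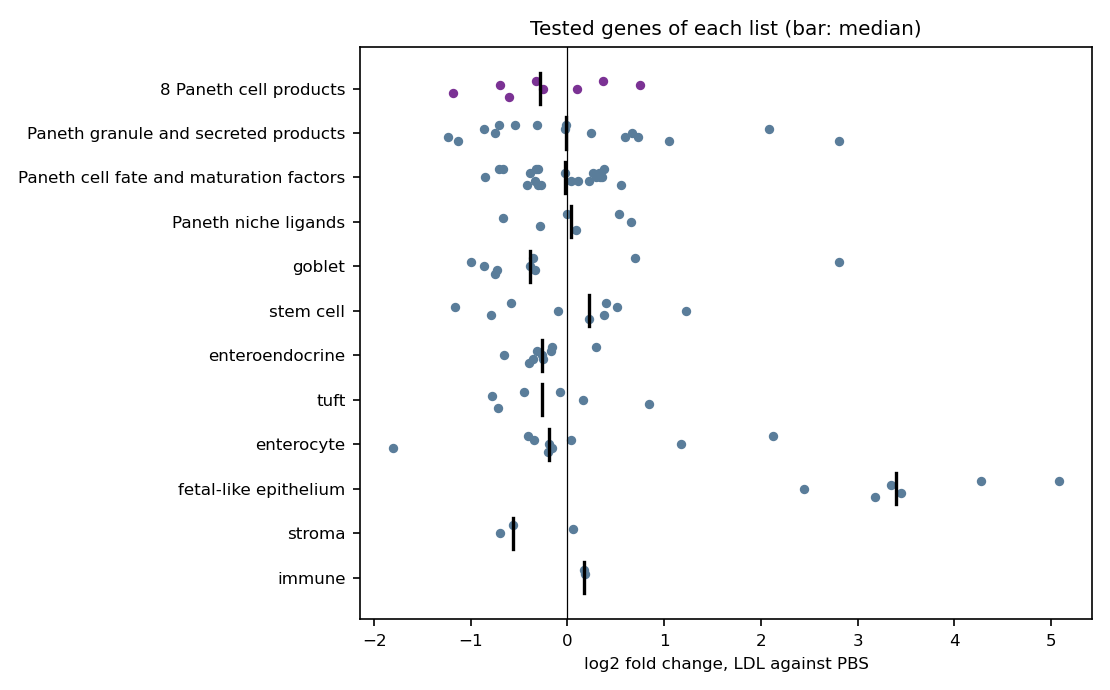
Log2 difference between LDL and PBS of every tested gene in each list, 1 point per gene with a bar at the median. The 8 Paneth cell products have a median of -0.29, the 3 other Paneth lists lie at -0.02, -0.02 and 0.04, and the fetal-like epithelium list stands apart at 3.40.

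Markers of the other cell types were looked at for what moved beside these genes. Of 9 goblet cell genes, the other secretory type that makes Itln1, limma without a mouse term called 3 lower (Spink4 at a log2 difference of -0.995, Fcgbp at -0.86 and Agr2 at -0.75) and 1 higher (Clca1 at 2.81). With the block these were called as well, and so was Tff3, lower. The list summed to 52897 to 57633 normalized counts with PBS and 30664 to 37095 with LDL. The LDL to PBS ratio of this sum was 0.601, 0.662 and 0.580 in mice 1, 2 and 3, while that of Itln1 was 0.303, 0.820 and 0.346. The part of goblet cells in the values of Itln1 was not tested. Of 9 stem cell genes 0 were called without a mouse term, 5 had an unadjusted p under 0.05, and with the block Ascl2 was called higher and Olfm4 and Smoc2 lower. Of 9 enteroendocrine and 6 tested tuft cell genes 0 were called without a mouse term and 1 had an unadjusted p under 0.05 in each, and with the block Tac1 and Pou2f3 were called lower. Of 9 enterocyte genes Alpi was called higher without a mouse term, and with the block Alpi and Apoa4 were called higher and Lct, at a log2 difference of -1.80, lower. The 7 stromal genes summed to 94.6 to 186 normalized counts, and the 8 immune genes to 134 to 222 with Elane at 0 in every library, and 3 and 2 of them passed the filter. Of these tested genes limma called 0 in either fit, and 1 stromal and 0 immune genes had an unadjusted p under 0.05 without the block.

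**Figure D5:**
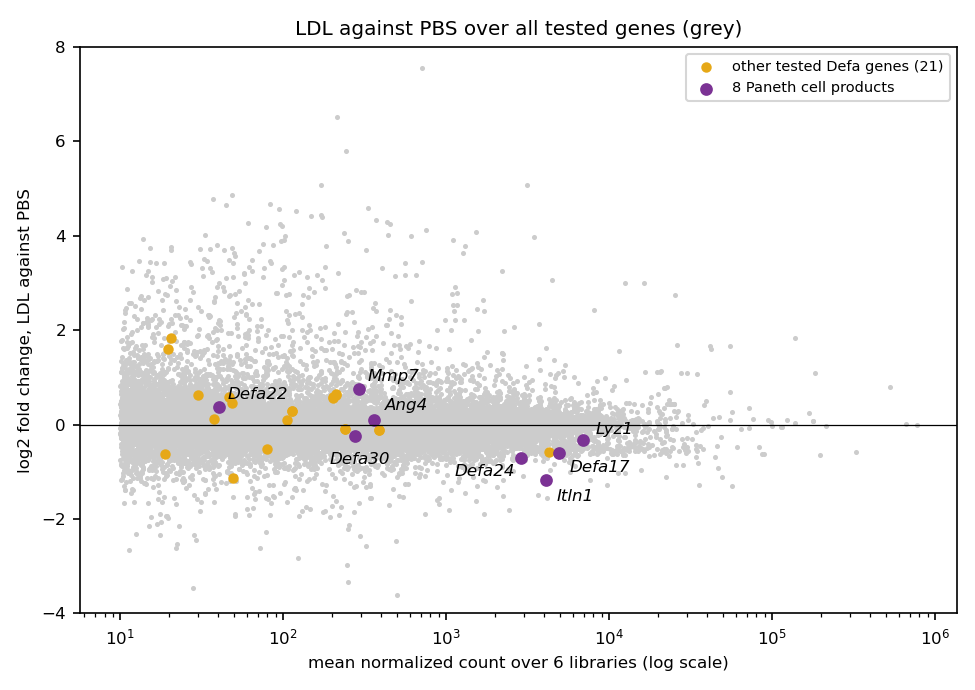
Log2 difference between LDL and PBS against the mean normalized count over 6 libraries (log scale) for all 18459 tested genes in grey, the 21 other tested Defa genes in yellow and the 8 Paneth cell products in purple. Itln1, at -1.18, is the lowest of the purple points, and Mmp7, at 0.75, the highest.

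Across the 6 libraries the 3 genes called lower with the block ran together. On the log2 scale Pearson's r was 0.98 between Defa17 and Defa24 and 0.96 and 0.95 between Itln1 and these 2 genes. Lyz1 ran with Defa17 at 0.89, whereas Itln1 and Mmp7 gave -0.71 and Itln1 and Ang4 gave -0.02. The 5 genes outside the set whose pattern was most like the mean of the 8 standardized products, among 11932 genes with a mean of at least 100, were Zbtb25 (r = 0.983), Srl (0.978), Tpcn1 (0.970), Nt5c3b (0.969) and Cbs (0.968). All of these r are over 6 libraries of 3 mice that differ in treatment, mouse and depth, and they are given as descriptions. The 3 genes called lower were picked by their LDL difference in these same libraries, which by itself raises r between them.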

How the data were processed

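The 6 RNA-Seq libraries came from LDL- and PBS-treated organoids of 3 mice and were grouped by their labels. The deposited signal values are normalized counts: single-end reads were aligned by the authors with STAR (GRCm39), assigned to genes with featureCounts and scaled by 1 size factor per library. Each value was divided by the lowest value above 0 in its library, taken as what 1 read is worth, which gave whole reads (within 0.001 read) for 100% of the values. Depth was 22061545 to 31073360 reads per library. Base calls were converted with bcl2fastq 2.20 per the labels.

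Genes were named from GENCODE M39 (54749 of 55416 identifiers found). Genes averaging at least 10 normalized counts were compared as log2(normalized count + 1) with limma 3.58.1 (eBayes with a trend, two-sided, Benjamini-Hochberg adjusted) in R 4.3.3. A call required an adjusted p-value below 0.05 and a difference above 1.5-fold. The labels give both libraries of a replicate number 1 animal identifier, so the numbers pair the samples. After removal of treatment means, the 2 libraries of a mouse correlated over genes (r = 0.48, 0.42 and 0.46). Blocking on the mouse was 1 alternative, and others were DESeq2 1.42.0 and edgeR 4.0.16 on the recovered reads with and without the block, pseudocounts of 0.5 and 5, no filter or a mean of at least 50, other scalings, and libraries or mice left out. Sums over genes had no test. A result on a withheld item is not reported here. The 8 genes, the lists (hand-written from general knowledge) and the alternatives were chosen with earlier results of these data known. The text names the 8 genes, Defa genes that were called or abundant, near copies of the 8 genes, and the 5 genes of most like pattern. It also names called, abundant and some other genes of each list. Of the 3 Defa genes with the highest mean outside the set, Defa3, Defa23 and Defa31, only Defa3 is described by its values in each library.

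Transcript windows of 100 bases, coding ends and the 250 bases before starts were read from GRCm39 and GENCODE M39 with 1 canonical transcript per gene. Python 3.11.15 with numpy 2.4.6, pandas 2.3.3 and matplotlib 3.10.9 wrote tables and drew figures, and the steps were tested on simulated data. Of 200 genes simulated with a log2 difference of 1.5, limma recovered 188 with or without the block when mice did not differ. With an SD of 0.5 between mice on the log2 scale, it recovered 0 without the block and 189 with it. A gene not called without a mouse term may therefore still differ.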

Additional observations from a re-analysis of the deposited data

How the results depend on the processing

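The 8 Paneth cell products kept their directions under all alternatives run except Ang4, which reversed to -0.12 without the PBS library of mouse 2 and to -0.042 without both libraries of mouse 2, with and without the replicate block, and reached 0.21 without the PBS library of mouse 3. Counts below are higher, then lower, with LDL. Without a mouse term, limma called 0 and 0 of the 8 products, 162 and 73 of all genes, 0 and 0 of the Defa genes and 1 and 0 of the other Paneth lists. With the replicate block these were 1 and 3, 1048 and 639, 4 and 3, and 5 and 5. DESeq2 gave 1 and 3, 846 and 348, 1 and 4, and 4 and 1, and with the block 1 and 3, 981 and 511, 4 and 3, and 5 and 5. edgeR gave 2 higher in the other Paneth lists and was otherwise within 1.5 times, and with the block 1 and 2, 1171 and 588, 5 and 2, and 5 and 5. Without a filter on the mean, 1 and 2 products, 506 and 245 of all genes, 1 Defa gene lower and 2 genes of the other Paneth lists higher were called, and upper-quartile scaling called 2 of the latter higher. Pseudocounts, a mean of at least 50 and quantile normalization stayed within 1.5 times. With 1 LDL library left out, limma called 0 to 1 and 0 to 3 products, 18 to 1179 and 2 to 1133 of all genes, 0 to 1 and 0 to 4 Defa genes and 0 to 6 and 0 to 5 genes of the other Paneth lists. With 1 PBS library left out these were 0 and 0 to 1, 27 to 55 and 3 to 9, 0 and 0 to 1, and 0 and 0. Without both libraries of mouse 1, 2 or 3, they were 0 to 1 and 0 to 3, 0 to 1012 (17 without mouse 1) and 0 to 735, 0 and 0 to 4, and 0 to 5 and 0 to 5. With the block as well they were 0 to 1 and 0 to 3, 265 to 1604 (758 without mouse 1) and 77 to 1348 (327 without mouse 1), 0 to 2 and 0 to 4, and 1 to 6 and 1 to 9. The fits without both libraries of mouse 1 or mouse 2 were added after seeing the data. Over the alternatives the adjusted p of Itln1 reached 0.724, that of Defa17 0.736, that of Defa24 0.715 and that of Mmp7 0.715, the highest values from limma fits on fewer samples. Defa22 rests on 29 to 49 reads per library, and reads shared between copies limit Defa17, Defa22 and most other Defa genes.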
